A study of Mus musculus with 20 samples.

Results

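Pancreata of inceptor knockout embryos (Iir -/-) were compared with those of wild-type embryos (Iir +/+) at embryonic day 18.5 (E18.5), shortly before birth. The comparison rested on 9 of the 20 arrays of the series, 5 from knockouts and 4 from wild type, taken by their sample titles. The genes were those of all probe sets that carry exactly 1 gene symbol: 30604 of 65956 probe sets, which stand for 30063 genes. Of these, 17993 genes had a signal above the median of the array on at least 4 of the 20 arrays and were tested. The other 11 arrays come from newborn pups (P0, 6 knockout and 5 wild type) and serve as separate samples of the same genotypes. They were also fitted together with the E18.5 arrays, so the SE and p-values at E18.5 draw on the spread of all 20 arrays. All embryos were of strain C57BL/6J, and their mothers were starved for 2 h before dissection; pups had been starved for 5 h. The labels give no sex and no litter, and do not say how the Iir allele was disrupted or whether an animal gave more than 1 array. The whole pancreas was sampled, so islet cells are a small part of the RNA, and fewer cells of a type cannot be told apart from less RNA per cell.

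Inceptor, the product of Elapor1 (Iir in the labels), is a transmembrane protein with a domain like that of the mannose 6-phosphate receptors. It cycles between the Golgi, endosomes and the cell surface, and binds the insulin and IGF1 receptors and promotes their clathrin-mediated uptake. In insulin-producing beta cells this uptake limits how long the receptors signal from the surface. The title of the series describes inceptor as an opponent of insulin signalling in beta cells, and the comparison asks how the pancreas transcribes its genes without it. At E18.5 the organ consists mostly of acinar cells that make digestive enzymes, with ducts, young islets, vessels, nerves and the mesenchyme that carries them.

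Values are log2 RMA signals, so a difference of 1 is a 2-fold difference, and differences are knockout minus wild type ± SE. The labelled tissue was borne out by its own markers. The mean signal of 21 acinar enzyme genes was 18.89 to 19 on all 9 arrays, and the insulin gene Ins2 stood at 18.58 on each. Array medians were 4.844 to 4.944, and any pair of E18.5 arrays correlated at 0.9875 to 0.9931 over all probe sets. Signals end at a ceiling of 19.932, where 90 genes stood on all 9 arrays, so differences of those genes are hidden. The first principal component of the 9 arrays held 22.1% of the variance and ran from 35.3 in knockout 1 to -17.8 in knockout 5, with the 4 wild-type arrays between -16.4 and -0.2. The number of arrays limits the precision of every value below.

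Marker genes of neighbouring organs differed between arrays of 1 genotype by more than the group means differed. The mean of 13 intestinal epithelium markers was 5.54, 7.88, 5.97, 6.32 and 5.62 in knockouts 1 to 5 and 5.50, 6.02, 5.39 and 7.06 in wild types 1 to 4. Knockout 2 and wild type 4 were high. Fabp2, which carries fatty acids in gut absorptive cells, stood at 18.78 in knockout 2 and 13.76 in wild type 4, against 4.8 to 10.73 on the other 7 arrays. Of the 13 markers 7 passed the signal filter, and of those tested 5 lay above 0 and 2 below (median 0.41). That median was -0.08 without knockout 2, 0.02 without wild type 1, 0.27 without knockout 4, 0.23 without wild type 3 and 0.94 without wild type 4.

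The mean of 14 liver markers was 9.38, 9.06, 8.81, 10.06 and 12.21 in the knockouts and 9.25, 10.39, 11.40 and 11.30 in wild type. Knockout 5 was the highest array and knockout 3 the lowest, and 11 of the 14 markers lay below 0 (median -0.75, -0.05 without knockouts 1 and 2 and wild type 4, and -0.33 to -1.46 when single arrays were left out). The mean of 11 skeletal muscle markers was 7.26 in knockout 1 and 4.87 to 5.71 on the other 8 arrays, and Mylpf, a myosin light chain of fast muscle, read 12.02 there against 5.32 to 7.22 elsewhere. The mean of 7 smooth muscle markers was 10.13, 10.89, 11.22, 10.47 and 8.26 in the knockouts and 10.19, 8.02, 12.01 and 12.16 in wild type. Knockout 5 and wild type 2 were low in these contractile genes. The mean of 3 Y-linked genes was 7.74 in knockout 5, 7.42 in wild type 1 and 7.72 in wild type 4, and at most 4.42 on the other 6 arrays.

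**Figure D1:**
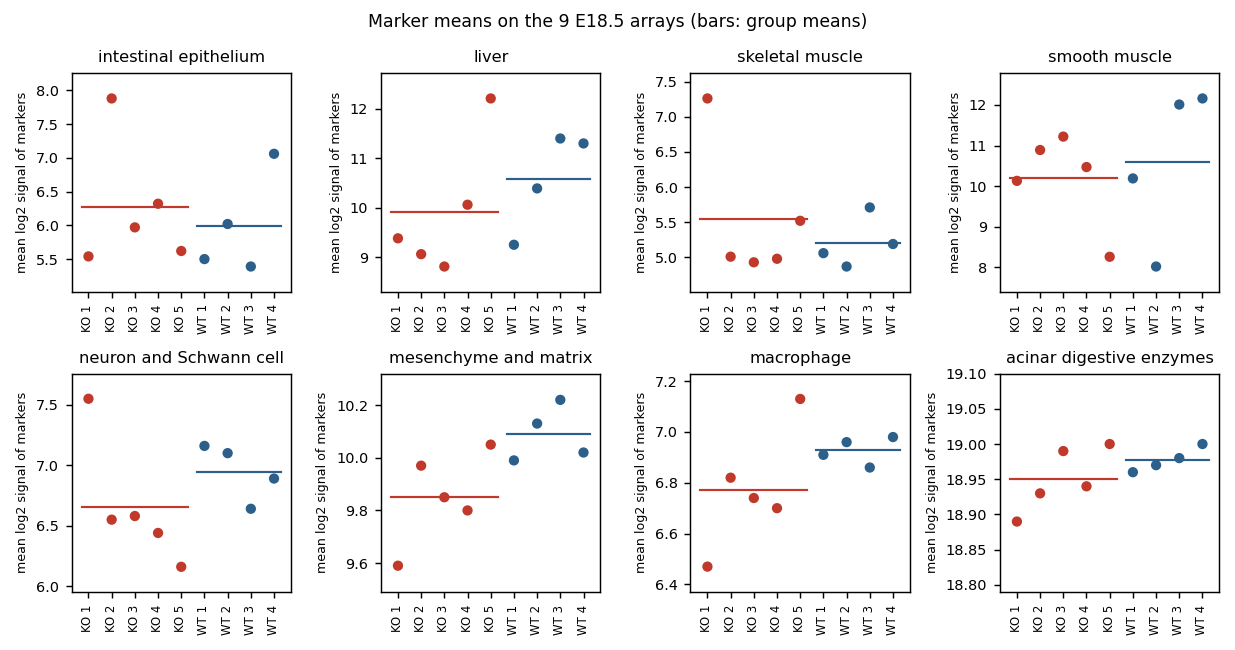
Mean log2 RMA signal of the markers of 8 tissues or cell types on each E18.5 array (KO, knockout 1 to 5; WT, wild type 1 to 4), with a bar at each group's mean. Knockout 2 and wild type 4 stand out for intestinal markers, knockout 1 for skeletal muscle markers, and knockout 5 and wild type 2 for low smooth muscle markers.

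Loss of inceptor left a pancreas in which 2 of 17993 genes passed the test at E18.5, both lower in knockouts (0.0111% of the genes tested), and none higher (0%), by limma with Benjamini-Hochberg adjustment over all tested genes. They were Elapor1 itself and Man1a2. At an unadjusted p under 0.05 there were 980 genes (5.45%), 702 of them higher (3.9%) and 278 lower (1.55%).

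Elapor1 read 5.79, 6.34, 6.5, 6.44 and 6.5 in the knockouts and 12.04, 12.06, 11.66 and 11.68 in wild type. The groups lay far apart, with knockout 1 the lowest array. The gene fell by 5.55 ± 0.19 on the log2 scale (46.8-fold, limma adjusted p = 4.13e-12), which bears out the genotype labels on all 9 arrays.

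Man1a2 encodes an alpha-mannosidase of the Golgi that trims mannose from N-linked glycans as glycoproteins pass through. It read 6.74, 6.89, 6.93, 6.78 and 6.85 in the knockouts and 9.17, 9.07, 8.96 and 9.16 in wild type. Each group lay within a narrow range and the groups did not overlap. Man1a2 fell by 2.25 ± 0.28 (95% interval of the difference -2.85 to -1.66; 4.77-fold; limma adjusted p = 0.00236). Its close relative Man1a, with the same activity, did not pass: 8.74 ± 0.20 (SD, n = 5) in knockouts against 8.82 ± 0.13 (SD, n = 4), a difference of -0.09 ± 0.11. Without knockouts 1 and 2 and wild type 4, the 3 marker-rich arrays (a mean over 7 for intestinal or muscle genes), Man1a2 was at -2.22 with an adjusted p of 0.109. Without the 2 arrays lowest in smooth muscle markers it was at -2.26 with 0.0538, so the size held and the call did not. These p-values draw on the spread of the P0 arrays too. With the E18.5 arrays alone the limma adjusted p of Man1a2 was 1.83e-06.

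Other enzymes of N-glycan processing did not pass the test. Of 21 tested, 15 lay above 0 and the median difference was 0.03, beside 0.02 over all tested genes. Mgat2, which adds N-acetylglucosamine to the trimmed glycan, was at 0.29 ± 0.17, Mgat5, which adds a further branch, at 0.27 ± 0.20, and Edem2, which marks misfolded glycoproteins for disposal, at 0.28 ± 0.20.

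**Figure D2:**
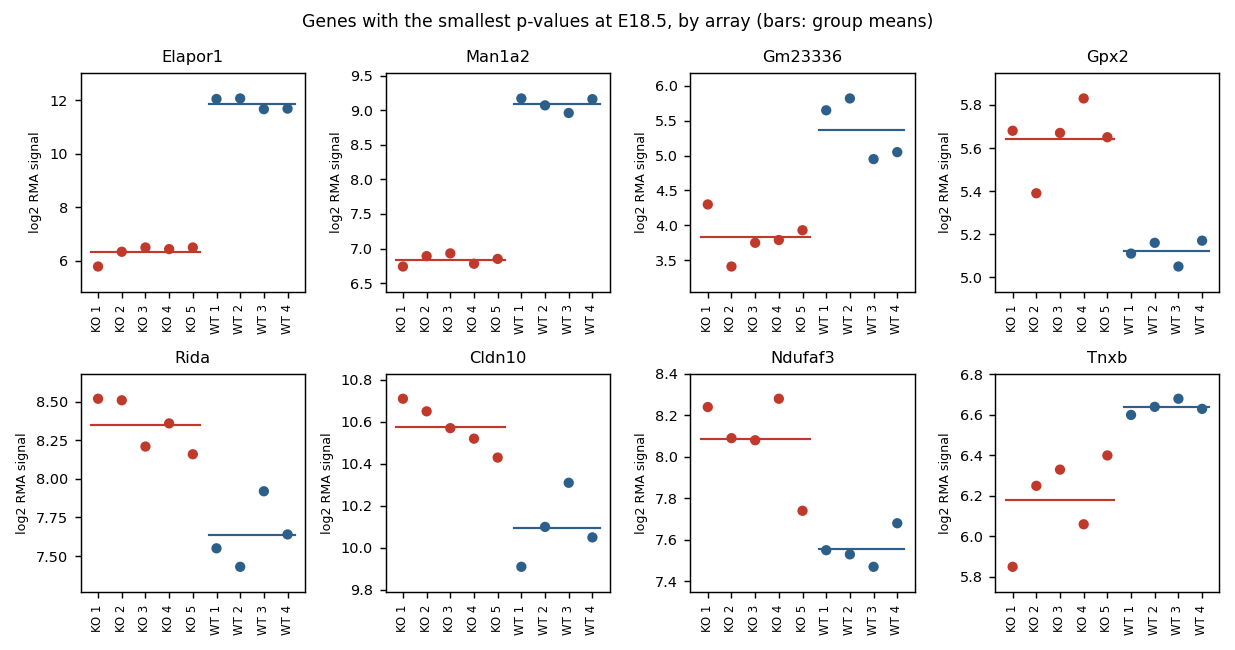
Log2 RMA signal of 8 genes on each E18.5 array (KO, knockout; WT, wild type), with a bar at each group's mean and a separate vertical scale for each gene. Elapor1 and Man1a2 passed the test, and Gm23336, Gpx2, Rida, Cldn10, Ndufaf3 and Tnxb did not. In each gene all 5 knockout arrays lie on one side of all 4 wild-type arrays. The genes that did not pass were chosen by their values in this comparison, which favours such a split.

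Both genes that passed lie on mouse chromosome 3, with 69 tested named genes between them in the RefSeq order of assembly GRCm38.p6 (the array's own build is not stated in the sources used here). Differences of these 69 genes ran from -0.19 to 0.76. None had all knockouts below all wild types, 4 had all knockouts above, and 6 had an unadjusted p under 0.05. Among all tested genes 0.706% had every knockout array below every wild-type array and 1.74% had every one above. The 5 nearest genes on each side of Elapor1 lay between -0.06 and 0.23. They were Psma5 (0.23 ± 0.12), a proteasome subunit; Sort1 (0.02 ± 0.10), the sorting receptor sortilin; Psrc1, Celsr2 and Sars before it, and Tmem167b, Taf13, Wdr47, Clcc1 and Gpsm2 (-0.06 ± 0.13) after it. The 5 on each side of Man1a2 lay between -0.13 and 0.35. None of these neighbours passed the test.

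Of the 20 tested genes on each side of Elapor1, 24 lay above 0 and 14 below. The 3 with an unadjusted p under 0.05 lay on one side: Eps8l3 (0.76 ± 0.32), Gstm7 (0.51 ± 0.22) and Gstm3 (0.49 ± 0.19), named after their values were seen. Gstm3 and Gstm7 belong to a cluster of glutathione S-transferase genes whose near-identical sequences can share probes, so the split among them is uncertain. At P0 the 3 genes were at -0.04 ± 0.29, 0.15 ± 0.19 and -0.05 ± 0.18. On chromosome 3 as a whole 59 of 896 tested genes (6.58%) had an unadjusted p under 0.05, beside 5.45% of all.

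**Figure D3:**
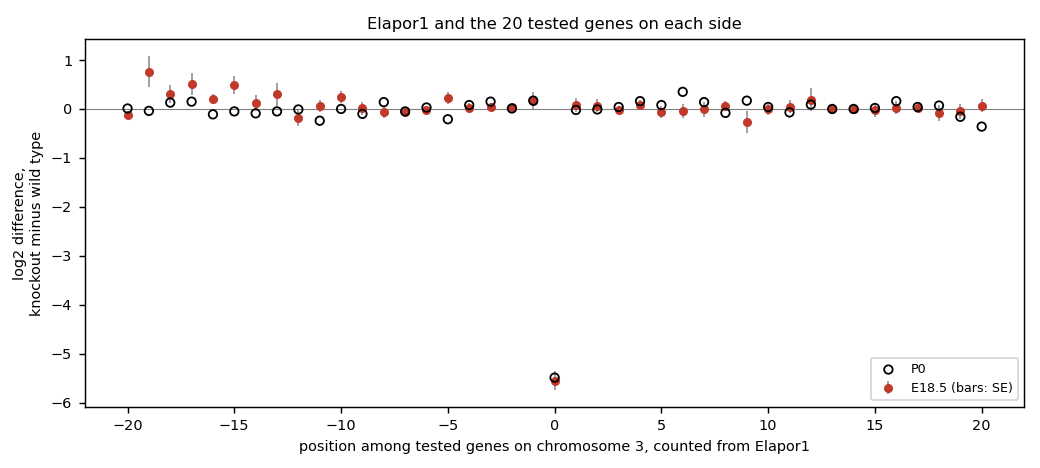
Log2 difference, knockout minus wild type, of Elapor1 and the 20 tested named genes on each side of it on chromosome 3, by their order; filled points are E18.5 with bars for the SE and open points P0. Elapor1 lies at -5.55, its 40 neighbours between -0.27 and 0.76 at E18.5.

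A small nuclear RNA gene that lies within Elapor1, Gm23336, gave the next smallest p among the lower genes. It is named here although it falls outside the rule for named genes, and was chosen after its values were seen. It read 4.3, 3.41, 3.75, 3.79 and 3.93 in the knockouts and 5.65, 5.82, 4.95 and 5.05 in wild type. The groups did not overlap, with a difference of -1.53 ± 0.28 (limma adjusted p = 0.135) at E18.5 and -1.06 ± 0.25 at P0. Signal of this probe set cannot be separated from Elapor1 transcript that covers it.

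Of the genes higher in knockouts, Gpx2 came closest to the threshold. It encodes a glutathione peroxidase of epithelia that reduces lipid and hydrogen peroxides. It read 5.68, 5.39, 5.67, 5.83 and 5.65 in the knockouts and 5.11, 5.16, 5.05 and 5.17 in wild type. All knockouts lay above all wild types at a low signal, with knockout 2 nearest to the wild types. The difference was 0.52 ± 0.08 (1.43-fold, limma adjusted p = 0.0508). It passed under 8 of 36 alternatives and not under 28, with adjusted p-values from 0.0064 to 0.48 and differences from 0.47 to 0.61. Those it passed included quantile normalisation (adjusted p = 0.00853), median centring (0.0164) and cyclic loess (0.0146). Those it missed included the E18.5 arrays alone (0.409), the replicate block (0.48), the Y-linked covariate (0.134) and the fit without wild type 1 (0.267). At P0 Gpx2 was at 0.05 ± 0.08.

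Rida, which removes reactive enamines and imines formed in amino acid breakdown, read 8.52, 8.51, 8.21, 8.36 and 8.16 in the knockouts and 7.55, 7.43, 7.92 and 7.64 in wild type. The groups did not overlap and differed by 0.71 ± 0.13 (limma adjusted p = 0.145). Cldn10, a claudin of epithelial tight junctions, read 10.71, 10.65, 10.57, 10.52 and 10.43 in the knockouts and 9.91, 10.1, 10.31 and 10.05 in wild type. Again no knockout reached down to the wild types, at a difference of 0.48 ± 0.10. Wfdc15b, of the whey acidic protein family of small secreted proteins, had the largest difference among these genes: 9.82, 9.91, 9.38, 9.37 and 9.44 in the knockouts against 8.03, 8.83, 8.47 and 8.84 in wild type, or 1.04 ± 0.23 (adjusted p = 0.491).

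Ndufaf3, Mrps16 and Macrod1 encode mitochondrial proteins. Ndufaf3, which helps to assemble respiratory complex I, read 8.24, 8.09, 8.08, 8.28 and 7.74 in the knockouts and 7.55, 7.53, 7.47 and 7.68 in wild type (0.53 ± 0.12). Mrps16, of the small subunit of the mitochondrial ribosome, read 11.08, 10.93, 10.43, 10.52 and 10.5 against 9.93, 10.08, 9.99 and 9.92 (0.71 ± 0.18). Macrod1, a mitochondrial hydrolase of ADP-ribose marks, was at 0.52 ± 0.13. Pop5, a protein subunit of RNase P (0.33 ± 0.08), the general transcription factor subunit Gtf2e2 (0.48 ± 0.12) and the phosphatase subunit Ppp2r3c (0.27 ± 0.07) complete the 10 named genes with the smallest p. Each of the 10 had all 5 knockouts above all 4 wild types, as did 1.74% of all tested genes. The 10 were chosen for a small p in this same comparison, so that count adds no support. None but Gpx2 had a limma adjusted p under 0.1.

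Of the lower genes that did not pass, Tnxb and Fn1 encode matrix proteins. Tnxb, the matrix protein tenascin-X, read 5.85, 6.25, 6.33, 6.06 and 6.4 in the knockouts and 6.6, 6.64, 6.68 and 6.63 in wild type (-0.46 ± 0.10, adjusted p = 0.491). The 4 wild types lay within 0.1 of each other and above all knockouts. Fibronectin, Fn1, read 10.35, 10.54, 10.14, 10.63 and 11 in the knockouts and 10.96, 11.17, 11.66 and 11.29 in wild type. Here knockout 5 overlapped wild type 1, and the difference was -0.74 ± 0.21 (adjusted p = 0.686).

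Ptger4, a receptor for prostaglandin E2, was at -0.42 ± 0.11 and Serinc4 at -0.25 ± 0.07. Amotl2, an angiomotin of cell junctions, was at -0.14 ± 0.04 and Elfn1 at -0.31 ± 0.07. Knockout means were 4.89 for both Ptger4 and Amotl2, within the range of the array medians, and 4.7 for Elfn1, below that range. The odorant receptor Olfr965 (-0.49 ± 0.13) and the taste receptor Tas2r121 (-0.47 ± 0.12) stood at 4.53 ± 0.07 (SD, n = 5) and 4.68 ± 0.14 (SD, n = 5) in knockouts, means below the array medians. Among the 10 smallest p-values on either side, 3 on the higher and 3 on the lower belonged to predicted or small RNA genes, which were counted and passed over.

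How small a change these arrays could show varied by gene. The median SE was 0.134. For 17205 genes (95.6%) the 95% interval of the difference, unadjusted for the number of genes, lay within -1 to 1. That count includes genes at the ceiling or on a plateau, such as Ins2, and genes of low signal. For these a narrow interval does not leave out a 2-fold change. Differences of at least 0.5 in size were found for 213 genes on the higher side (1.18%) and 195 on the lower side (1.08%). The median of all differences was 0.02, and 56.4% of tested genes lay above 0 and 42.9% below, the shares against which the gene lists below are set. Of the members of 48 lists, 1 was called, Man1a2. The counts are of list members that passed the signal filter on the 20 arrays, whatever their group.

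Islet hormone genes were at high signals in both genotypes and none passed. Gcg, the glucagon gene of alpha cells, read 16.87, 16.56, 16.46, 16.08 and 16.56 in the knockouts and 15.89, 16.3, 15.97 and 15.92 in wild type. Knockout 4 overlapped wild type 2, and the difference was 0.48 ± 0.15 (adjusted p = 0.747). Iapp, the amylin co-secreted with insulin, read 15.09, 15.24, 15.51, 15.45 and 15.65 against 14.62, 15.25, 15.27 and 14.87 (0.39 ± 0.25).

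Ghrl, which encodes ghrelin of the fetal islet, was at 0.38 ± 0.20 and the somatostatin gene Sst of delta cells at 0.10 ± 0.23. Ppy, the pancreatic polypeptide gene, was at -0.01 ± 0.37 and turned sign under some alternatives, as did Sst. Ins2 was at 18.58 on all 9 arrays, so no difference of it can be read; Ins1 and Insr, the insulin receptor gene, are not analysed here. Over the 7 tested hormone genes the median was 0.10, and it was 0.00 to 0.20 when single arrays were left out (lowest without knockout 5, highest without knockout 2) and 0.26 without the marker-rich arrays.

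Transcription factors of islet cells stood near the array medians. Of 12 tested, 11 lay above 0 (median 0.13, range -0.02 to 0.23), none had an unadjusted p under 0.05, and 5 further members were below the signal filter. The median was 0.08 without wild type 3 or wild type 4. Pdx1, which specifies the pancreas and maintains beta cells, was at -0.02 ± 0.12 from signals of 4.93 ± 0.07 (SD, n = 5) and 4.95 ± 0.31 (SD, n = 4). Nkx6-1, a beta-cell factor, was at 0.09 ± 0.14, Irx2 of alpha cells at 0.15 ± 0.09 and Rfx6 at 0.23 ± 0.24. Neurog3, the factor that commits progenitors to the endocrine fate, read 6.42, 7.19, 7.32, 6.25 and 7.1 in the knockouts and 6.19, 7.17, 6.06 and 5.89 in wild type. Knockouts 1 and 4 lay near the 3 low wild types, and wild type 2 lay with the 3 high knockouts (0.53 ± 0.24, adjusted p = 0.911). Neurog3 was the highest member of a separate list, that of endocrine progenitor and Notch genes. Of its 14 tested members 6 lay above 0 and 8 below (median -0.07). With 1 higher member and 2 lower, 21.4% of that list had an unadjusted p under 0.05, beside 5.45% of all tested genes.

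Genes of the insulin granule and of glucose sensing were spread around 0, 15 of 25 above it (median 0.05). Kcnj11, the pore of the ATP-sensitive potassium channel, was at 0.36 ± 0.15, and the granule protein Ptprn2 at 0.32 ± 0.13. Slc30a8, which loads granules with zinc, was at 0.53 ± 0.30. Vamp2, a SNARE of vesicle fusion, was at -0.37 ± 0.16.

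Of the receptors that inceptor binds, only that for IGF1 (Igf1r) is analysed here. Igf1r, Igf2r, Irs1 and Irs2 showed differences no larger than the spread between arrays. Igf1r read 8.27, 8.44, 8.31, 8.31 and 8.26 in the knockouts and 8.25, 8.43, 8.57 and 8.6 in wild type. The groups overlapped, with wild types 3 and 4 highest, at a difference of -0.14 ± 0.13 (95% interval -0.41 to 0.13). Igf2r, which carries IGF2 and mannose 6-phosphate cargo to lysosomes, was at -0.08 ± 0.13.

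Irs1 and Irs2, the adaptors that relay both receptors, were at -0.20 ± 0.21 and 0.01 ± 0.53. Irs2 read 12.4, 12.04, 10.86, 10.88 and 10.92 in the knockouts and 11.35, 11.75, 12.24 and 10.29 in wild type, a spread of over 1 within each group; its sign turned under several alternatives. Over 30 tested genes of insulin signal transduction, 16 lay above 0, none had an unadjusted p under 0.05, and the median was 0.01, beside 0.02 over all tested genes. The members with the smallest p were Rheb (0.19 ± 0.12), the GTPase that activates mTORC1; Tsc1 (0.12 ± 0.08), of the complex that restrains Rheb; the adaptor Grb2 (0.10 ± 0.08); and the PI3-kinase subunit Pik3r3 (-0.25 ± 0.21).

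Ligands, receptors and binding proteins of insulin and the IGFs lay below 0 in 11 of 12 cases (median -0.18), with no unadjusted p under 0.05. Igf2, the main fetal growth factor of the family, read 11.45 on 5 of the 9 arrays, a plateau like that of Ins2, so no difference is read from it. Igfbp4 was at -0.20 ± 0.14 and Igfbp2 at -0.29 ± 0.20, while Igfals, which stabilises IGFs in blood, was at 0.25 ± 0.13. Without knockout 1 the median was -0.11.

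Targets of FOXO transcription factors, which insulin signalling keeps out of the nucleus, were mixed: 7 of 19 lay above 0 (median -0.07, or -0.03 without wild type 1). Sesn3, a sestrin that damps mTORC1, read 9.97, 10.31, 10.62, 10.02 and 10.07 in the knockouts and 9.69, 9.06, 9.94 and 9.96 in wild type. The groups met at the edge without overlap, at 0.53 ± 0.23 (adjusted p = 0.911). Gadd45a was at 0.20 ± 0.09 and Txnip, which restrains glucose uptake, at -0.83 ± 0.53. The paralogue of inceptor, Elapor2, was at -0.05 ± 0.09 from signals of 5.04 ± 0.14 (SD, n = 5) and 5.09 ± 0.09 (SD, n = 4). Over 22 tested genes of clathrin coats, adaptors and endocytic sorting, Elapor2 included, differences ran from -0.10 to 0.14 with 11 above 0.

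Nuclear genes of the respiratory chain and ATP synthase, which make ATP in the inner mitochondrial membrane, lay above 0 for 36 of 38 tested members (median 0.18). The mean over the members was 11.55, 11.63, 11.43, 11.56 and 11.44 in the knockouts and 11.22, 11.33, 11.35 and 11.44 in wild type. Wild type 4 tied with knockout 5 and lay just above knockout 3, and the other wild types lay below all knockouts. An unadjusted p under 0.05 was reached by 7 of the 38 members, all on the higher side, beside 3.9% of all tested genes on that side. The smallest adjusted p in the list was 0.733.

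Ndufb5, a subunit of complex I, was at 0.21 ± 0.06 and Ndufs3, of its catalytic core, at 0.20 ± 0.08. Ndufb3, another complex I subunit, read 11.39, 11.55, 11.39, 11.64 and 11.42 in the knockouts and 10.92, 11.17, 11.16 and 11.37 in wild type, without overlap (0.32 ± 0.12). Uqcrc2, of complex III, read 12.32, 12.04, 11.69, 11.98 and 11.74 against 11.42, 11.45, 11.64 and 11.78 (0.38 ± 0.12). The highest wild type again reached into the knockouts. The median of the list was 0.13 to 0.22 when any of the 9 arrays was left out, and 0.18 without the 3 marker-rich arrays.

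Other mitochondrial lists lay on the same side. Of 24 mitochondrial ribosomal protein genes 21 lay above 0 (median 0.14), with Mrpl15 of the large subunit at 9.94, 10.21, 9.71, 9.71 and 9.51 in the knockouts against 9.07, 9.42, 9.49 and 9.37 in wild type (0.48 ± 0.17). Of 13 complex I assembly factors 12 lay above 0 (median 0.08, or 0.15 without wild type 4), led by Ndufaf3 and by Ndufaf7 (0.30 ± 0.12). Of 19 genes of fatty acid oxidation and ketogenesis 16 lay above 0 (median 0.14, or 0.22 without wild type 4). Echs1, which hydrates enoyl-CoA in beta-oxidation, read 10.07, 9.92, 9.47, 9.5 and 9.96 in the knockouts and 8.96, 9.34, 8.98 and 9.2 in wild type. These did not overlap, at 0.66 ± 0.17 (adjusted p = 0.592). Etfa, which passes electrons from that pathway to the respiratory chain, was at 0.32 ± 0.15, and Acadm, the medium-chain acyl-CoA dehydrogenase, at 0.29 ± 0.15. Across the oxidation list wild type 4 (8.15) was as high as knockout 4, while wild types 1 to 3 (7.76, 7.75 and 7.95) were below all knockouts.

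**Figure D4:**
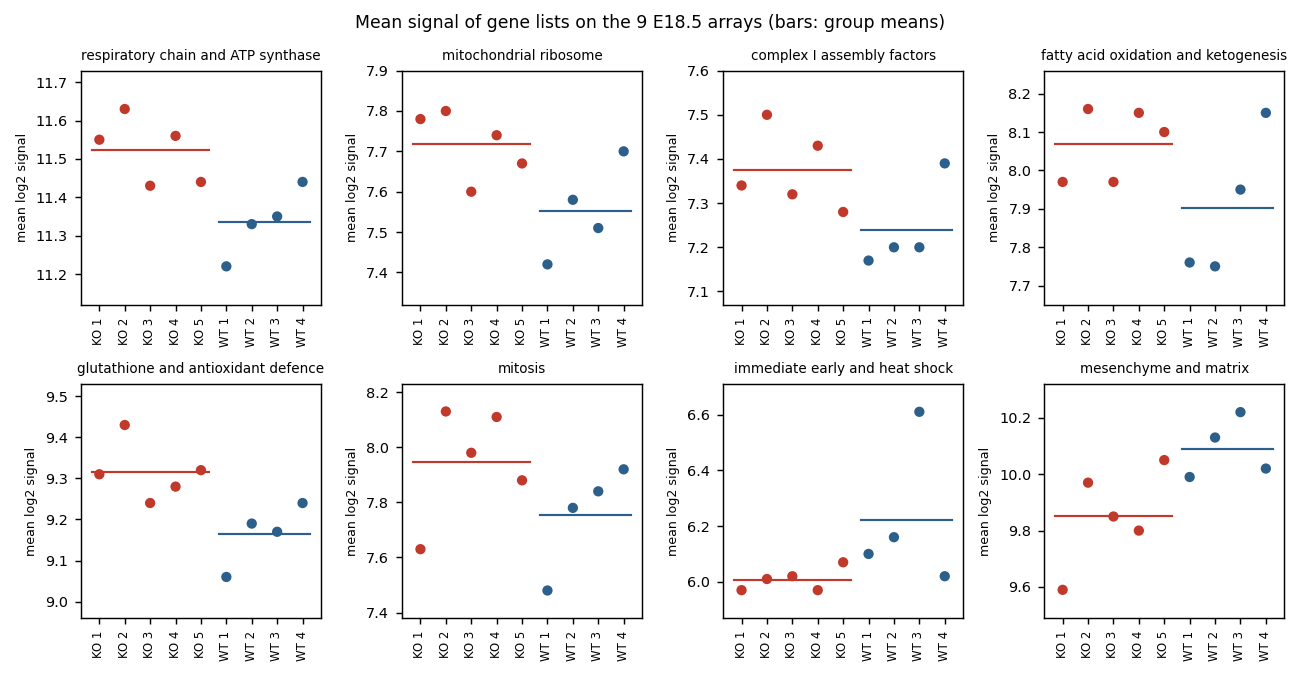
Mean log2 RMA signal of the members of 8 gene lists on each E18.5 array (KO, knockout; WT, wild type), with a bar at each group's mean and a separate vertical scale for each list. In the 4 mitochondrial lists wild type 4 lies among the knockouts and wild type 1 at or near the bottom; in the mesenchyme list knockout 1 is lowest at 9.59, and in the immediate early list wild type 3 is highest at 6.61.

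Genes of glutathione metabolism and antioxidant defence lay above 0 in 19 of 24 cases (median 0.14). Apart from Gpx2, these were led by the mitochondrial peroxiredoxin Prdx3 (0.35 ± 0.14), glutathione synthetase Gss (0.32 ± 0.13) and catalase, Cat (0.28 ± 0.14). The list mean was 9.24 to 9.43 in knockouts and 9.06 to 9.24 in wild type, where wild type 4 matched the lowest knockout.

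Genes of mitosis lay above 0 in all 30 tested cases, the lowest at 0.00 to 2 decimals and the highest at 0.40 (median 0.19). Ube2c, which works with the anaphase-promoting complex to destroy cyclins, read 11.72, 12.31, 11.99, 11.96 and 11.84 in the knockouts and 11.34, 11.51, 11.67 and 11.73 in wild type. Only knockout 1 overlapped, and only with wild type 4 (0.40 ± 0.16, adjusted p = 0.874); it was the 1 member with an unadjusted p under 0.05. Mki67, a marker of cycling cells, was at 0.21 ± 0.27, the checkpoint kinase Bub1 at 0.21 ± 0.11 and cyclin A2, Ccna2, at 0.31 ± 0.18. The list means did not follow genotype closely: 7.63, 8.13, 7.98, 8.11 and 7.88 in the knockouts and 7.48, 7.78, 7.84 and 7.92 in wild type. Knockout 1 lay below 3 of the 4 wild types, and wild type 1 was lowest. The median was 0.10 without wild type 1 and 0.27 without knockout 1.

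DNA replication genes were even, with 13 of 24 above 0 (median 0.02), among them Tyms (0.32 ± 0.20), which makes thymidylate, and Rrm2 (0.24 ± 0.13). The difference between the mitosis and replication lists was not tested. Ccnd2, the D-type cyclin of perinatal beta cells, was at 0.04 ± 0.35 and turned sign under some alternatives, and over 10 tested D cyclins, CDKs and CDK inhibitors 5 lay above 0.

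Mesenchymal and matrix genes lay below 0 in 22 of 23 cases (median -0.22). Besides Fn1, the matrix protein periostin, Postn, read 12.85, 13.47, 13.16, 13.41 and 13.44 in the knockouts and 13.62, 13.63, 13.92 and 13.56 in wild type, without overlap (-0.42 ± 0.18, adjusted p = 0.911). Col5a1, a chain of fibrillar collagen, was at -0.19 ± 0.08, also without overlap. The proteoglycan decorin, Dcn, was at -0.36 ± 0.16. The mean over the list was 9.59 in knockout 1, 9.80 to 10.05 in the other knockouts and 9.99 to 10.22 in wild type, so that knockout 5 lay above the lower wild types. Leaving out knockout 1, the array richest in skeletal muscle markers, brought the median to -0.13, and leaving out any other array left it at -0.27 to -0.18. Smooth muscle markers lay below 0 in 7 of 7 cases as well (median -0.38), with array means that differed more within groups than between them. That median was 0.04 without knockout 5, 0.03 without wild type 3, 0.09 without wild type 4 and -1.25 without wild type 2; the part of these markers in the matrix result was not tested.

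Mesothelial markers, of the sheet that covers the organ, lay below 0 in 6 of 6 cases (median -0.43). Wt1, their transcription factor, read 6.82, 7.23, 7.05, 6.87 and 7.1 in the knockouts and 7.42, 7.62, 7.68 and 7.32 in wild type. The groups did not overlap, at -0.50 ± 0.17 (adjusted p = 0.795), and Upk3b and Msln were at -0.55 ± 0.38 and -0.38 ± 0.30. Macrophage markers lay below 0 in 9 of 11 cases (median -0.12) and those of neurons and Schwann cells in 8 of 10 (median -0.13), where knockout 1 was the highest array at 7.55 and knockout 5 the lowest at 6.16. The macrophage median was -0.06 without knockout 1 or knockout 4 and -0.03 without the marker-rich arrays. The neuron median was -0.25 without knockout 1 and -0.07 without knockout 5. Endothelial markers had a median of -0.04, which was 0.04 without knockout 1 or wild type 2.

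Ductal epithelium genes lay above 0 in 12 of 15 cases (median 0.20, range -0.17 to 0.99). With 2 higher members and 1 lower, 20% of the list had an unadjusted p under 0.05, beside 5.45% of all tested genes. Epcam, an adhesion molecule of epithelia, read 11.67, 11.43, 11.43, 12.17 and 11.58 in the knockouts and 11.25, 11.11, 10.6 and 11.56 in wild type. Wild type 4 overlapped the knockouts (0.53 ± 0.18, adjusted p = 0.795), and keratin 8, Krt8, was at 0.48 ± 0.22. Knockout 4 was the highest array for both genes.

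Digestive enzyme genes of acinar cells can hardly be compared, since 13 of 21 stood at the ceiling on all 9 arrays. Those below it included chymotrypsin-like Ctrl (-0.39 ± 0.26), the phospholipase Pla2g1b (-0.31 ± 0.35) and Ctrc (0.23 ± 0.40). Of 12 acinar transcription and secretion genes 9 lay above 0 (median 0.15), led by the water channel Aqp8 (0.55 ± 0.31), the granule SNARE Vamp8 (0.25 ± 0.15) and the nuclear receptor Nr5a2 (0.23 ± 0.15). The median was -0.05 without the 3 marker-rich arrays, 0.01 without knockout 2, 0.09 without wild type 3, 0.25 without wild type 2 and 0.00 without wild type 4. Dmbt1, a secreted scavenger protein of ducts and granules, read 16.49, 17.96, 18.23, 17.92 and 18.66 in the knockouts and 18.81, 18.6, 18.48 and 18.6 in wild type. Knockout 1 was the low array and knockout 5 lay among the wild types (-0.77 ± 0.29, adjusted p = 0.839).

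Immediate early and heat shock genes, which respond within minutes to handling and stress, lay below 0 in 14 of 15 cases (median -0.25). Jun, a subunit of AP-1, read 7.14, 7.18, 7.54, 7.43 and 7.55 in the knockouts and 7.88, 7.58, 8.65 and 7.24 in wild type. Wild type 3 stood apart on the high side and wild type 4 lay among the knockouts (-0.47 ± 0.21). Ier3 was at -0.44 ± 0.13 and the RNA-binding protein gene Zfp36 at -0.55 ± 0.40. Without wild type 3 the list's median was -0.06. The time from dissection to lysis is not given in the labels, and its part in these values was not tested.

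Cholesterol synthesis genes lay above 0 in 15 of 17 cases (median 0.18), led by Fdps (0.73 ± 0.37), which makes farnesyl diphosphate, and Lss (0.31 ± 0.16); the median was -0.03 without the 3 marker-rich arrays and 0.09 without knockout 2. Genes of ER chaperones and the unfolded protein response had a median of 0.01 over 24 members, glycolysis 0.07 over 14, ATF4 targets 0.09 over 22 and interferon response -0.05 over 19. Among these, Chac1, which degrades glutathione under amino acid stress, was at 0.56 ± 0.20, and Mthfd2, of mitochondrial folate metabolism, at 0.39 ± 0.16. Glucocorticoid response genes had a median of -0.09 and lay below 0 in 9 of 13 cases; leaving out single arrays gave -0.18 to -0.03. Cebpd among them, a transcription factor of the acute phase, was at -0.47 ± 0.18. Alas2, the first enzyme of haem synthesis in red cell precursors, was at 1.12 ± 0.32 (adjusted p = 0.686), while the median of 7 erythroid genes was 0.19, with 0.03 to 0.27 when single arrays were left out. Of the 48 lists 27 had a median above 0 and 19 below.

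**Figure D5:**
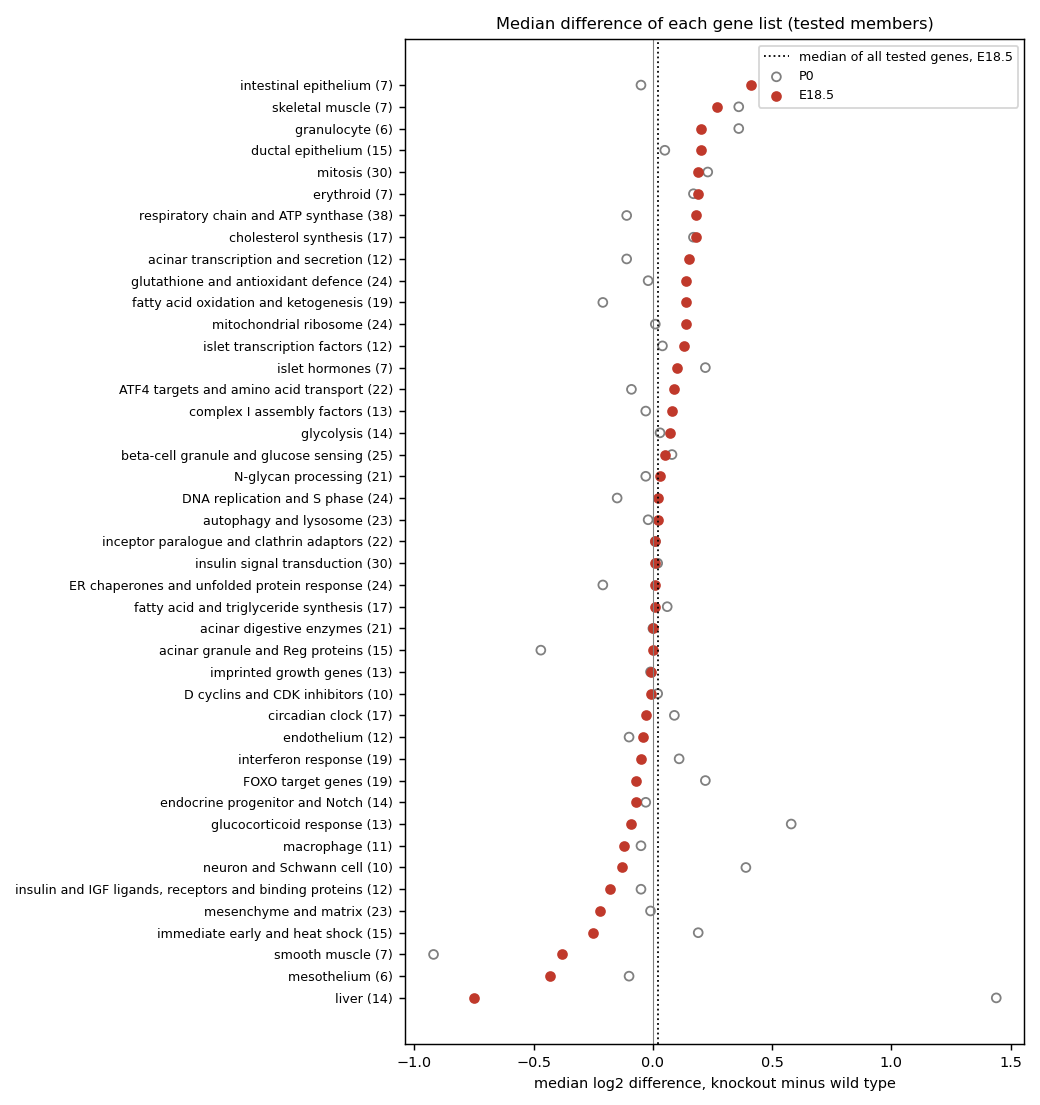
Median log2 difference, knockout minus wild type, of the tested members of each list with at least 5 of them (number in brackets), at E18.5 (filled) and P0 (open); the dotted line is the median of all tested genes at E18.5, 0.02. At E18.5 the medians run from -0.75 for liver markers to 0.41 for intestinal markers, both of which moved with single arrays, and several lists lie on the other side of 0 at P0.

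The P0 arrays share no sample with those of E18.5 but were normalised and fitted together with them. They gave lower signals in knockouts for both genes that passed. Elapor1 was at -5.49 ± 0.18 there (limma adjusted p = 8.1e-13) and Man1a2 at -1.71 ± 0.25 (0.0251), and these were the 2 genes called at P0 (0.0111%). Man1a2 was not called at P0 under 12 of 37 alternatives, among them array weights, the marker covariates, the replicate block, and the fits without P0 knockout 2, 3, 4 or 6 or P0 wild type 2 or 5. For Man1a2 the genotype difference at P0 minus that at E18.5 was 0.54 ± 0.38 (adjusted p = 0.805), and over all genes 0 passed for that difference (0%; 1256 genes, 6.98%, at an unadjusted p under 0.05, limma). Man1a2 read 8.39 in P0 knockout 5 and 6.78 to 7.22 in the other 5 knockouts, against 8 in P0 wild type 4 and 8.95 to 9.51 in the other wild types. The groups thus overlapped at P0 but not at E18.5.

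Other differences at E18.5 were seen again at P0 about as often as those of all tested genes. Of the 980 genes with an unadjusted p under 0.05 at E18.5, 499 (50.9%) had the same sign at P0, beside 49.6% of all tested genes. An unadjusted p under 0.05 at P0 too was found for 88 of the 980 (8.98%), beside 8.76% of all genes, 45 of them in the same direction and 43 in the opposite one. Among the named higher genes the P0 difference was -0.09 ± 0.12 for Rida, -0.14 ± 0.09 for Cldn10, 0.27 ± 0.21 for Wfdc15b and 0.23 ± 0.11 for Ndufaf3.

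The change of the genotype difference between the ages had unadjusted limma p-values of 0.000264 for Rida, 0.000332 for Cldn10 and 0.000582 for Gpx2, each with an adjusted p of 0.261. These genes were chosen for a small p at E18.5, and the E18.5 difference is part of this change. The choice itself thus favours small p-values here. Of the named lower genes Tnxb was at 0.02 ± 0.09 and Fn1 at -0.12 ± 0.19 at P0. The respiratory chain list, at 0.18 before birth, had a median of -0.11 at P0 with 7 of 38 members above 0, beside 52.1% of all tested genes at that age. For 14 of the 38 the change between the ages had an unadjusted p under 0.05, beside 6.98% of all genes. Fatty acid oxidation was at -0.21 at P0, with 8 of 19 members below that threshold. The immediate early list was at 0.19, the matrix list at -0.01 and the mitosis list at 0.23 with 29 of 30 members above 0. Ube2c was at 0.57 ± 0.15 and Mki67 at 0.43 ± 0.24 there, neither of which passed.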

How the data were processed

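Whole pancreas RNA was extracted (RNeasy Lipid Tissue Kit), then amplified with Ovation PicoSL WTA System V2 and labelled with the Encore Biotin Module, per the labels' protocols. The deposited log2 values come from Affymetrix Expression Console 1.4.1.46 and its RMA method, per the submitters' processing notes. They were used as deposited by the authors.

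Each gene was represented by its single-symbol probe set with the highest mean. Genes that exceeded the median of the array on 4 or more of the 20 arrays were fitted with limma 3.58.1 in R 4.3.3, with 1 mean for each age and genotype over all 20 arrays, and p-values were adjusted by Benjamini and Hochberg with a threshold of 0.05. Tables and figures were made with Python 3.11.15, numpy 2.4.6, pandas 2.3.3 and matplotlib 3.10.9, and the fit was tested on simulated data. The labels do not say that the arrays of a group are separate animals, so the spread behind the p-values is that of these samples and may be technical.

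Named genes are Elapor1 with 5 tested neighbours on each side, the called genes, the 10 smallest p-values in each direction, a fixed set of hormone, receptor and cell cycle genes, and up to 4 members of each list with the smallest p; predicted genes and small RNAs were counted, not named. The members and lists were chosen with earlier results of these data known. Names were updated through the RefSeq table of GRCm38.p6. Insr, Ins1 and Neurod1, among other list members, are not analysed here. Of the tested genes 295 share their values with another gene.

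Replicate numbers recur between groups. Same-numbered deviations correlated at 0.09 to 0.23 over the 4 numbers, below 0.1 for 1 of them. These values do not exclude pairs. The labels do not say that the numbers mark pairs, so the main fit did not treat them as such. Alternatives changed the signal filter, the normalisation, the moderation, array weights, the arrays in the fit, covariates, the choice of probe set and the threshold, or left out each array in turn; those on smooth muscle markers were chosen after seeing the data.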

Additional observations from a re-analysis of the deposited data

Results flagged for a closer look

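In 12 of 169 groups of samples 1 array stood apart from the rest of its genotype by Dixon's test at 95%, where chance gives about 1 in 20. Knockout 1 accounts for 5 of them. It was lowest for Elapor1 at 5.79 (others 6.34 to 6.5), for the D-type cyclin Ccnd2 at 13 (13.47 to 13.65) and for Clcc1, a neighbour of Elapor1, at 6.92 (7.4 to 7.55). It was highest for Pdx1 at 5.05 (4.88 to 4.92) and for the mean of skeletal muscle markers at 7.26 (4.93 to 5.52).

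Among the other knockouts, Nkx6-1 was highest in knockout 3 at 6.48 (others 5.97 to 6.11) and Igf1r in knockout 2 at 8.44 (8.26 to 8.31). The mean of beta-cell granule and glucose-sensing genes was lowest in knockout 4 at 7.82 (7.99 to 8.04), and that of glucocorticoid response genes highest in knockout 5 at 8.7 (8.06 to 8.11). In wild type, array 4 was lowest for insulin signal transduction genes at 7.47 (7.59 to 7.61) and highest for complex I assembly factors at 7.39 (7.17 to 7.2), and array 2 was highest for imprinted growth genes at 9.49 (9.34 to 9.35).

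Among probe sets with no gene symbol, which the comparison does not use, TC0300002744.mm.1 was lower in knockouts by -3.22 ± 0.32, with means of 5.26 and 8.48 (limma adjusted p = 0.000196 over 36106 probe sets). It, Elapor1 and Man1a2 were the 3 probe sets called in that fit. The number of the unnamed probe set directly follows that of Elapor1, TC0300002743.mm.1. Whether its signal comes from Elapor1 transcript was not tested.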

How the results depend on the processing

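The number of genes called at E18.5 was 2 under 25 of 38 alternatives, with Elapor1 called in 38 and Man1a2 in 36. It was 5 with array weights, 1 without the marker-rich arrays and 1 without those lowest in smooth muscle markers, and at an adjusted p under 0.10 it was 3. It was 2 to 4 when each array was left out, 4 without knockout 2 or P0 wild type 1. Genes called in these settings beside the 2 included Gpx2 (8 settings), Gm23336 (adjusted p = 0.018 with array weights) and Rida (0.0388 with array weights). The P0 count of 2 was 1 with array weights, the marker covariates, the smooth muscle covariate and without either set of E18.5 arrays, and 43 at 0.10. It ran from 1 to 45 when each array was left out, reaching 45 when P0 knockout 1 was left out, 40 for P0 wild type 1 and 11 for P0 wild type 3. The count for the change between ages ran from 0 to 34, the latter without P0 wild type 1. The causes were not tested.

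With a replicate block (age and replicate number), the counts were 2 at E18.5 and 1 at P0, and Sst was at -0.04. 3 of the 4 numbers correlated best with their own number, a hint from the data and not the design.

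Differences near 0 turned sign. Ppy was at 0.21 with marker covariates, 0.05 with the running number and 0.1 without the low smooth muscle arrays. Irs2 was at -0.04 with quantile or cyclic loess normalisation, -0.19 with array weights, -0.07 with marker covariates, -0.89 without the marker-rich arrays, -0.08 with the Y-linked mean and -0.05 with the smooth muscle mean. Ccnd2 was at -0.04 with quantile normalisation, -0.06 with marker covariates and -0.01 without the low smooth muscle arrays. Without the marker-rich arrays Man1a was at 0.02, Sort1 at -0.01 (also with cyclic loess) and Tmem167b at -0.01, and Wdr47 was at 0.01 with marker covariates. Leaving out single arrays gave -0.04 to 0.18 for Sst, -0.23 to 0.2 for Ppy, -0.11 to 0.12 for Pdx1, -0.36 to 0.29 for Irs2, -0.01 to 0.15 for Ccnd2, -0.04 to 0.08 for Sort1, -0.06 to 0.02 for Wdr47 and -0.13 to 0.01 for Gpsm2. Low signals near the array median and the ceiling limit what the arrays can show.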

Other observations

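Few genes had an unadjusted p under 0.05 in the same direction at both ages, 36 higher and 9 lower in knockouts. In opposite directions there were 43. Of the genes with such a p at E18.5, 8.98% had one at P0, beside 8.76% of all tested genes. None but Elapor1 and Man1a2 passed the adjusted threshold. Mrpl47, of the large subunit of the mitochondrial ribosome, was at 0.37 ± 0.13 at E18.5 and 0.35 ± 0.12 at P0. Kdm1a, a histone demethylase, was at 0.19 and 0.30, and Gyg, which primes glycogen synthesis, at 0.34 and 0.20. Mrpl47 and Gyg lie on chromosome 3, as do Elapor1 and Man1a2, and Kdm1a lies on chromosome 4. Whether that position plays a part was not tested. Mrpl47, Kdm1a and Gyg were chosen after their values were seen.

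Of 17 tested clock genes 4 lay above 0 and 13 below at E18.5 (median -0.03), and 0 had an unadjusted p under 0.05. Nr1d1, a repressor with a strong daily rhythm, was the lowest at -0.32 ± 0.17. It read 5.49, 5.53, 5.53, 5.61 and 5.54 in the knockouts and 5.97, 5.79, 5.84 and 5.82 in wild type, without overlap. Every knockout array lay below every wild-type array for 0.706% of all tested genes. The time of day of each dissection is not given in the labels, and its part in these values was not tested.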
